A study of Rattus norvegicus with 6 samples.

Results

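Collagen genes were examined in mammospheres, floating spheres that mammary cells form when kept off the culture surface. They were taken as the probe sets to which the platform annotation gave 1 gene with a symbol made of Col, a number, the letter a and a number. There were 58 such probe sets for 41 genes, of 14217 genes on the array, and the brightest probe set by mean over the 6 arrays stood for each gene. Of the 41 genes, 28 passed the filter on dim probe sets and were tested: 9 of 11 fibrillar genes, 5 of 7 basement membrane genes, 3 of 5 type VI genes, 2 of 4 transmembrane genes and 9 of 14 others.

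The spheres came from female Sprague Dawley rats. The hCG group had received recombinant human chorionic gonadotropin (hCG), a pregnancy hormone that acts on the ovary, at 100 IU per day for 21 days from 55 days of age by intraperitoneal injection. The Control group had received the vehicle, phosphate-buffered saline, on the same schedule. In both groups mammary glands 4 and 5 were removed 21 days after the last injection, and cells enriched for epithelium were cultured for 7 days with epidermal growth factor, basic fibroblast growth factor and heparin. Each group held 3 Affymetrix 3' arrays, numbered 5, 6 and 7. The comparison asked which collagen genes differed in spheres grown after hormone exposure had ended.

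Collagens are secreted or membrane-anchored proteins in which 3 chains wind around each other along stretches with glycine at every turn. Fibrillar collagens form the tensile fibres of connective tissue, type IV collagen forms the sheet-like mesh of basement membranes, and type VI collagen forms beaded microfibrils between the fibres and that mesh. In the mammary gland fibroblasts make most of the fibrillar collagen, while the basement membrane lies under the myoepithelial cells and around blood vessels.

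In hCG spheres 2 collagen genes rose and 0 fell among the 28 tested, by limma's moderated test, with p adjusted by Benjamini-Hochberg over all 10424 tested genes and called under 0.05. At that threshold 1.82% of all genes were called, 1.01% higher and 0.815% lower, and the 2 collagen genes were 7.14% of those tested. The genes were Col12a1, which encodes a collagen that sits on the surface of fibrils and links them to other matrix proteins, and Col25a1, which encodes a membrane-spanning collagen best known from neurons and from amyloid plaques. A further 4 genes lay between adjusted p values of 0.05 and 0.1: Col3a1, Col6a3 and Col4a1, all higher in hCG spheres, and Col8a2, lower. At 0.1 the call rate over all genes was 8.1%. At an unadjusted p under 0.05, 14 of the 28 collagen genes passed (50%), against 24.1% of all genes.

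The median log2 difference, hCG minus Control, was 0.23 over the 28 tested collagen genes and 0.03 over all tested genes. It was 0.06 over all 41 measured collagen genes, those below the filter included, and 0.015 over all 14217 genes on the array without the filter. Of the 28 genes, 21 lay above 0 (75%), against 55.8% of all genes. The hCG values lay wholly above the Control values in 10 collagen genes (35.7%) and wholly below them in 4 (14.3%), where 19.3% and 12.3% of all genes did so.

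**Figure D1:**
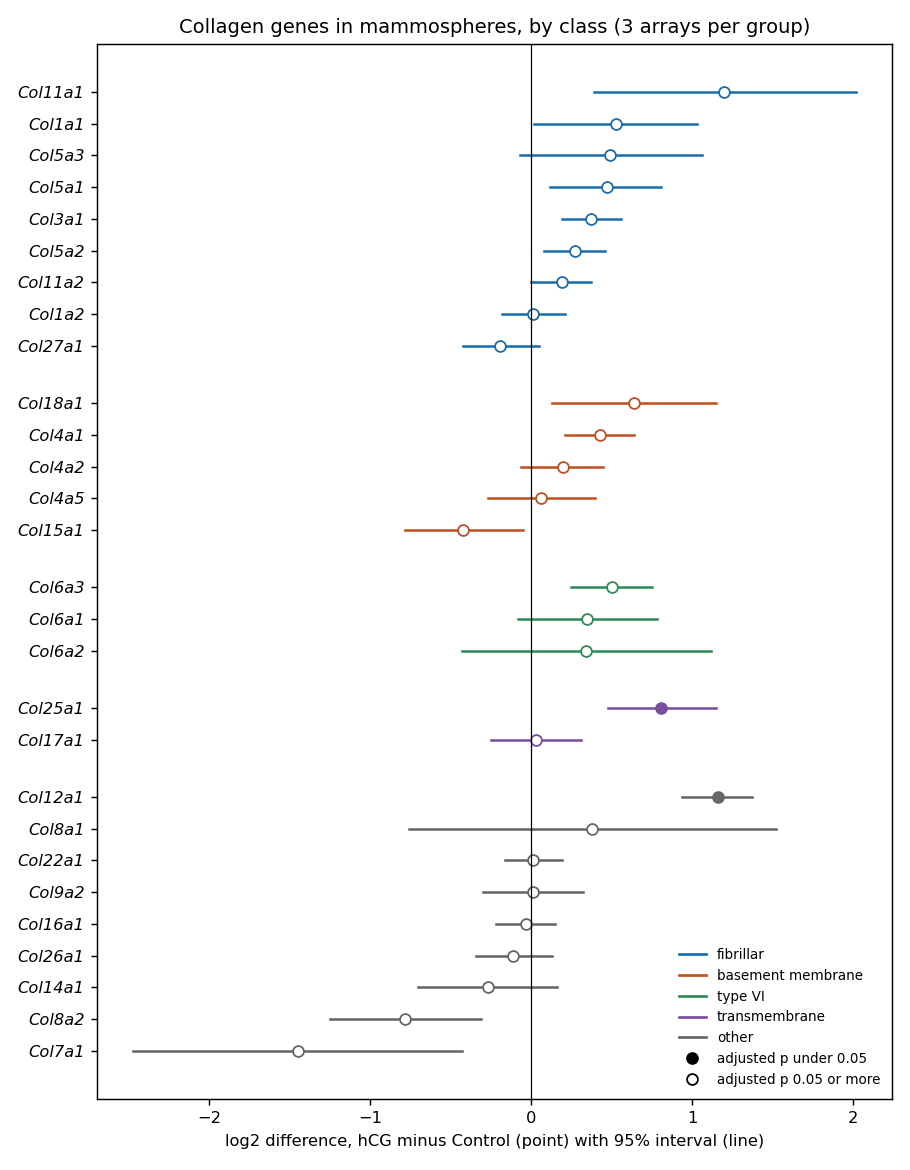
Log2 difference, hCG minus Control, of the 28 tested collagen genes (points) with 95% intervals from limma (lines), grouped by class, 3 arrays per group. Filled points are Col12a1 and Col25a1, the 2 genes with an adjusted p under 0.05; 8 of the 9 fibrillar genes lie above 0, and Col7a1 has the lowest value, -1.45.

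Promoter windows of RefSeq (rat assembly GRCr8), which run from 250 bases before to 50 bases after the annotated start of a gene, were matched for 32 of the 41 genes. The chain of Col4a1 assembles with that of Col4a2 into the common form of type IV collagen. The Col4a1 window is shown because the genes lie head to head and their chosen probe sets had hCG values above all Control values. A second Col4a1 probe set overlapped between groups, at a difference of -0.02. The window spans chr16:84885347-84885646 on the plus strand, and 176 of its bases also belong to the window of Col4a2 on the minus strand. Capitals mark the 76 bases between the annotated starts of the genes.
Col4a1: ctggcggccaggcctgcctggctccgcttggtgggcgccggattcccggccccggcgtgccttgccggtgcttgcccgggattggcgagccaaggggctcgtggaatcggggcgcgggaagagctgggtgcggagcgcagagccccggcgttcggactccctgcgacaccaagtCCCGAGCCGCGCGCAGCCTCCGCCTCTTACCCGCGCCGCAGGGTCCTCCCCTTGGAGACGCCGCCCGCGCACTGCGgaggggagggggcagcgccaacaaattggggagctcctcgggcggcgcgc
The windows of Col11a1 (chr2:204508886-204509185, plus strand) and Col7a1 (chr8:118483114-118483413, plus strand) are shown as those of the tested genes with the highest and the lowest log2 difference, neither of which passed the test. Capitals mark every match, on either strand, to the CCAAT box, to the Sp1-type motif GGGCGG or to the TATA motif TATAAA.
Col11a1: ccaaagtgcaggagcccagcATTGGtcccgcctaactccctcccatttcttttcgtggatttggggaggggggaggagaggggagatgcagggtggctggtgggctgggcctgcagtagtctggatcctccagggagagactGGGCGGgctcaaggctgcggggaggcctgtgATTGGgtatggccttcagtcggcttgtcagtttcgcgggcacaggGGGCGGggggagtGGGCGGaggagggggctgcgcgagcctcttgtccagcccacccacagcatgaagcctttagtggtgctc
Col7a1: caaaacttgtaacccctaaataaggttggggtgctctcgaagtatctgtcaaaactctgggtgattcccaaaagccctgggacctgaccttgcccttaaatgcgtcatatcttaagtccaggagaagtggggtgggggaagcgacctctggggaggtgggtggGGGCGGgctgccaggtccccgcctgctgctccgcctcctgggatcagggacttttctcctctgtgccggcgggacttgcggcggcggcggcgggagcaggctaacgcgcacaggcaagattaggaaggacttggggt
The Col11a1 window held 5 matches, of which 2 were to CCAAT and 3 to GGGCGG, and the Col7a1 window held 1, to GGGCGG. The motif GGGCGG occurred on either strand in 19 of the 35 windows of these 32 genes, with 33.1% of all 33469 windows holding it. CCAAT occurred in 10 of these windows (37.5% of all windows) and TATAAA in 4 (14.2% of all windows).

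Col3a1, the gene of type III collagen, which forms mixed fibrils with type I collagen, had log2 values of 12.02, 11.96 and 12.08 on Control 5, 6 and 7 and of 12.45, 12.33 and 12.41 on hCG 5, 6 and 7. The groups did not overlap, and the difference was 0.37 (SE 0.08, 1.30-fold, limma adjusted p = 0.0617). Its neighbour on the chromosome in the RefSeq gene order, Col5a2, which encodes a chain of the type V collagen that starts fibril assembly, measured 11.44, 11.48 and 11.31 in Control and 11.71, 11.66 and 11.68 in hCG spheres. These groups did not overlap either, at a difference of 0.27 (SE 0.08, adjusted p = 0.113).

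Col11a1, a minor fibrillar collagen of cartilage that is also made by activated fibroblasts, had the highest log2 difference of the 28 genes, 1.20 (SE 0.34, 2.30-fold, limma adjusted p = 0.108). Its Control values were 4.98, 4.96 and 5.09 and its hCG values 7.01, 5.49 and 6.14. The Control arrays lay close together and the hCG arrays did not: hCG 5 was highest and hCG 6 nearest to the Control arrays. A second tested probe set of Col11a1 had values of 3.77, 3.48 and 3.23 in Control and 6.10, 4.54 and 5.18 in hCG spheres, in the same order among hCG arrays, with a difference of 1.78. Without hCG 6 the difference of the chosen probe set was 1.56 (limma adjusted p = 0.0391), a setting in which 3.24% of all genes were called. With any other array left out the limma adjusted p ran from 0.12 to 0.3. Over all arrays left out in turn the difference ran from 0.81 to 1.56.

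The other type V genes were also higher on average in hCG spheres. Col5a1 had a difference of 0.47 (SE 0.15, adjusted p = 0.125) with no overlap, but its second tested probe set differed by 0.18 with overlapping groups, and the mean of both by 0.32 (adjusted p = 0.278). Col5a3 had a difference of 0.49 (SE 0.24, adjusted p = 0.265) with overlap through Control 7. Col11a2, which encodes the partner of Col11a1 in type XI fibrils, differed by 0.19 (adjusted p = 0.201), without overlap.

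Type I collagen, the main fibre collagen of the body, is built from the chains of Col1a1 and Col1a2. Col1a1 measured 8.83, 9.04 and 9.52 in Control and 9.86, 9.32 and 9.79 in hCG spheres, a difference of 0.53 (SE 0.21, adjusted p = 0.196) with hCG 6 below Control 7, and its second probe set one of 0.37 with overlap. Col1a2 measured 11.35, 11.47 and 11.39 in Control and 11.48, 11.35 and 11.43 in hCG spheres, a difference of 0.01 with a 95% interval from -0.18 to 0.21 (adjusted p = 0.934). A second probe set of Col1a2 had a difference of 0.21 and no overlap between groups, so the value near 0 belongs to the brighter probe set alone. The within-array difference of Col1a1 minus Col1a2 was -2.27 ± 0.35 (SD, n = 3) in Control and -1.76 ± 0.23 in hCG spheres, with overlapping groups (exact permutation test, two-sided p = 0.2, adjusted p = 0.6 over 6 pairs of partner chains). Col27a1, a fibrillar collagen of cartilage, was the fibrillar gene below 0, at -0.19 (SE 0.10, adjusted p = 0.305), with all hCG values under all Control values.

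As a class, the 9 tested fibrillar genes had a median difference of 0.37 and 0 calls, with 6 at an unadjusted p under 0.05 by limma (66.7%, against 24.1% of all genes). Their mean level per array, counted from the Control mean, read -0.13, 0.00 and 0.13 in Control and 0.51, 0.21 and 0.40 in hCG spheres. The groups did not overlap in this level, and hCG 6 was the hCG array nearest to the Control arrays. Col24a1 and Col2a1, the cartilage collagen, were below the filter.

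**Figure D2:**
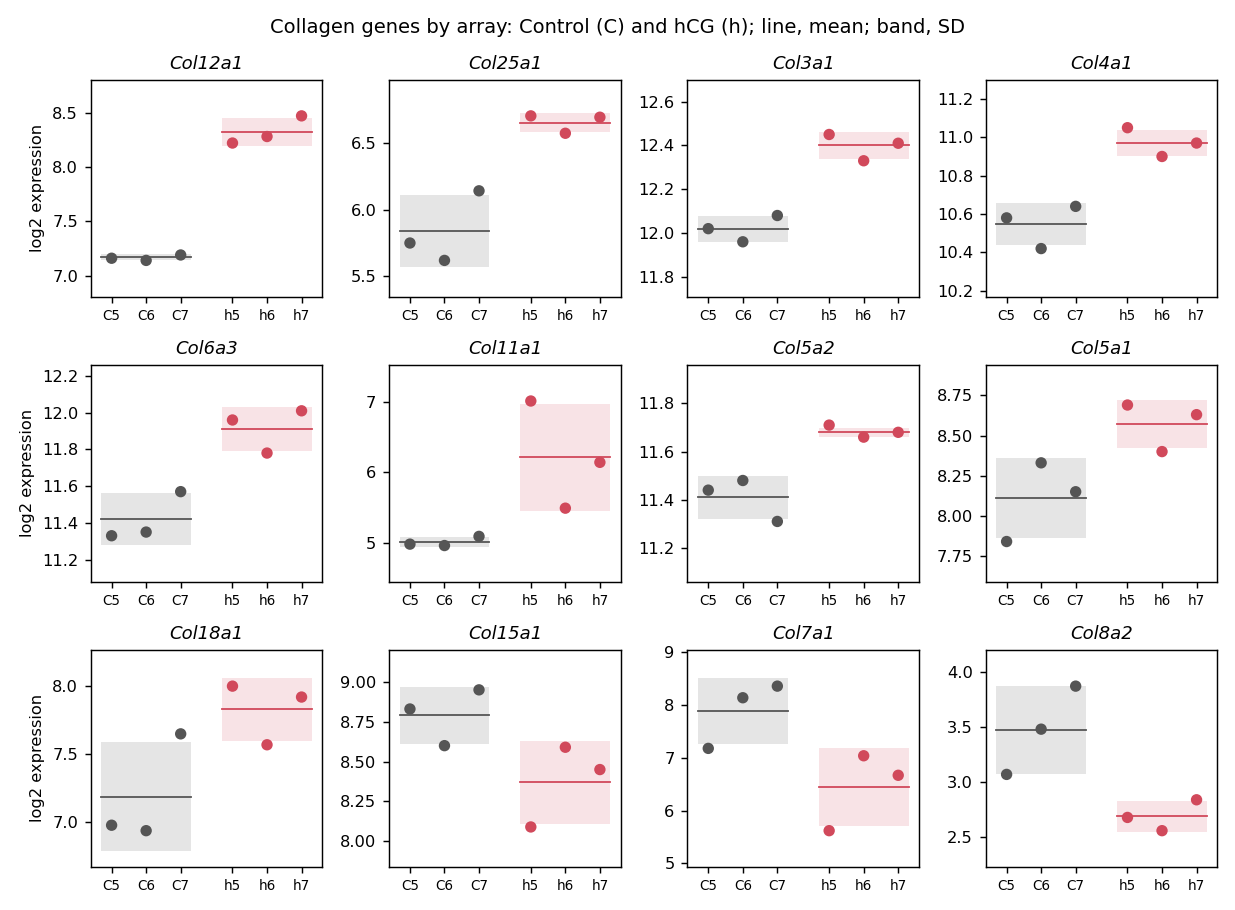
Log2 expression (vertical axes, scaled separately for each gene) of 12 collagen genes on the 3 Control arrays (grey, C5 to C7) and the 3 hCG arrays (red, h5 to h7); points are arrays, lines group means and bands the SD. Col12a1 runs from 7.14 to 7.19 in Control and from 8.22 to 8.47 in hCG spheres, while in Col18a1 Control 7 lies among the hCG arrays.

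Basement membrane genes had a median difference of 0.20 over 5 tested genes, with 0 called and 3 at an unadjusted p under 0.05 by limma (60%, against 24.1% of all genes). Col4a1 measured 10.58, 10.42 and 10.64 in Control and 11.05, 10.90 and 10.97 in hCG spheres. Its difference was 0.43 (SE 0.09, 1.34-fold, limma adjusted p = 0.0634), with no overlap. The other Col4a1 probe set measured 10.48, 10.42 and 10.52 in Control and 10.47, 10.47 and 10.41 in hCG spheres, a difference of -0.02 (SE 0.07). Of the 12 collagen genes with more than 1 tested probe set, Col4a1 was the only gene whose probe sets differed in sign, so its difference holds for the brighter probe set only.

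Col4a2, which shares its promoter region with Col4a1 as printed above, measured 9.62, 9.35 and 9.70 in Control and 9.81, 9.72 and 9.73 in hCG spheres. The groups were separated by a narrow gap between Control 7 and hCG 6, at a difference of 0.20 (SE 0.11, adjusted p = 0.319). With the brighter Col4a1 probe set, the within-array difference of Col4a1 minus Col4a2 was 0.99 ± 0.07 (SD, n = 3) in Control and 1.22 ± 0.04 in hCG spheres. The two-sided exact permutation p was 0.1, the least that 3 against 3 arrays can give (adjusted p = 0.6 over 6 pairs). The other Col4a1 probe set differed by -0.02, less than the 0.20 of Col4a2. With that probe set the change in Col4a1 minus Col4a2 has the opposite sign. Col4a5, a type IV chain of kidney and other specialised membranes, differed by 0.06 (adjusted p = 0.826), and Col4a4 and Col4a6 were below the filter.

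The multiplexin genes, whose products carry heparan or chondroitin sulfate chains in the basement membrane zone, pointed in opposite directions. Col18a1, the source of the angiogenesis inhibitor endostatin, measured 6.98, 6.94 and 7.65 in Control and 8.0, 7.57 and 7.92 in hCG spheres, a difference of 0.64 (SE 0.21, 1.56-fold, limma adjusted p = 0.140). Control 7 lay above hCG 6. Col15a1 measured 8.83, 8.60 and 8.95 in Control and 8.09, 8.59 and 8.45 in hCG spheres, a difference of -0.42 (SE 0.15, adjusted p = 0.168) in which Control 6 and hCG 6 nearly met. The second probe sets gave 0.64 for Col18a1 and -0.48 for Col15a1.

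Type VI genes had a median difference of 0.35 over the 3 tested genes, all above 0 and 0 called, with 1 at an unadjusted p under 0.05 by limma (33.3%, near the 24.1% of all genes). Col6a3, whose large chain joins those of Col6a1 and Col6a2 in the type VI monomer, measured 11.33, 11.35 and 11.57 in Control and 11.96, 11.78 and 12.01 in hCG spheres. The difference was 0.50 (SE 0.11, 1.41-fold, limma adjusted p = 0.0625), without overlap, and a dimmer probe set differed by 0.69. Averaging both probe sets gave 0.59 (limma adjusted p = 0.0451).

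Col6a1 measured 10.10, 10.10 and 10.70 in Control and 10.74, 10.46 and 10.75 in hCG spheres (difference 0.35, SE 0.18, adjusted p = 0.293). Its neighbour Col6a2 measured 7.09, 6.77 and 8.14 in Control and 7.68, 7.54 and 7.80 in hCG spheres (difference 0.34, SE 0.33, adjusted p = 0.559). In both genes Control 5 and Control 6 lay below every hCG array and Control 7 overlapped with them. Over all 6 arrays Col6a2 was highest on Control 7. Col6a5 and Col6a6 were below the filter.

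Of the transmembrane collagens, Col25a1 measured 5.75, 5.62 and 6.14 in Control and 6.70, 6.57 and 6.69 in hCG spheres. It rose by 0.81 on the log2 scale (SE 0.14, 1.76-fold, limma adjusted p = 0.0462), and every hCG array lay above every Control array. The call was lost without Control 5, Control 6, hCG 5, hCG 6 or hCG 7 (limma adjusted p from 0.0569 to 0.209), and without Control 7 the difference was 0.96 (adjusted p = 0.0114). Col17a1, a hemidesmosome protein that fixes epithelial cells to the basement membrane, measured 6.20, 6.12 and 6.16 in Control and 5.97, 6.39 and 6.22 in hCG spheres. Its difference was 0.03 with a 95% interval from -0.25 to 0.31 (adjusted p = 0.891). The median of these 2 genes was 0.42. Col13a1 and Col23a1 were below the filter.

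The other 9 tested genes had a median of -0.03 and held both the other called gene and the lowest differences. Col12a1 measured 7.16, 7.14 and 7.19 in Control and 8.22, 8.28 and 8.47 in hCG spheres. It rose by 1.16 on the log2 scale (SE 0.09, 2.23-fold, limma adjusted p = 0.0289), a gap far wider than the spread within either group. A dimmer tested probe set measured 3.19, 3.29 and 2.97 in Control and 3.73, 3.58 and 3.64 in hCG spheres, a difference of 0.49 without overlap, and the mean of both gave 0.83 (adjusted p = 0.0290). With 1 array left out in turn the difference stayed between 1.09 and 1.21, but the adjusted p was 0.0639 without Control 5, 0.102 without Control 6, 0.0588 without hCG 5 and 0.168 without hCG 7.

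Col7a1, the collagen of the anchoring fibrils that tie basement membrane to the tissue beneath, measured 7.18, 8.14 and 8.36 in Control and 5.62, 7.04 and 6.67 in hCG spheres. The difference was -1.45 (SE 0.43, 2.73-fold lower, limma adjusted p = 0.115). Both groups were spread over more than a log2 unit, and Control 5 lay just above hCG 6. Col8a2, a short-chain collagen known from the membrane under the corneal endothelium, measured 3.07, 3.48 and 3.87 in Control and 2.68, 2.56 and 2.84 in hCG spheres, without overlap. Its difference of -0.78 (SE 0.20, adjusted p = 0.0888) ended close to the filter level of 2.67. Col8a1, the related chain of vessel walls, differed by 0.38 with an SE of 0.48 (adjusted p = 0.667), and its hCG values ran from 5.43 on hCG 6 to 7.51 on hCG 5.

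Among relatives of Col12a1 on the fibril surface, Col14a1 measured 6.79, 7.49 and 7.21 in Control and 7.05, 6.74 and 6.88 in hCG spheres, a difference of -0.27 (SE 0.18, adjusted p = 0.410). Its second tested probe set differed by -0.52, also with overlap, and the mean of both by -0.40 (adjusted p = 0.219). Col16a1 differed by -0.03 with a 95% interval from -0.22 to 0.15 (adjusted p = 0.836). Col9a2 and Col22a1 each differed by 0.01 (adjusted p = 0.966 and 0.940). Col26a1, which is not one of these relatives, differed by -0.11 (adjusted p = 0.543). The 13 genes below the filter had group means from 1.36 to 2.66 and differences from -0.32 (Col9a3) to 0.37 (Col24a1). Their groups overlapped in every case, and tested without the filter their lowest limma adjusted p was 0.198 (Col13a1).

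Control 7 was the highest of the Control arrays in 17 of the 28 tested collagen genes and in 50% of all tested genes. In a gene where Control 7 is the highest Control array, leaving it out raises hCG minus Control by arithmetic alone. Without Control 7, 8 collagen genes were called higher and 0 lower by limma, where 5.6% of all genes were called (3.34% higher). These were Col12a1 and Col25a1 as before, with Col3a1 (0.41, adjusted p = 0.0441), Col4a1 (0.47, 0.0449), Col18a1 (0.87, 0.0377), Col5a3 (0.77, 0.0405), Col6a3 (0.57, 0.0377) and Col6a2 (0.75, 0.0411). When Control 5, Control 6, hCG 5 or hCG 7 was the array left out, 0 collagen genes passed limma, with 13, 11, 9 and 9 at an unadjusted p under 0.05, and 0 of all 10424 genes passed. Without hCG 6 limma called Col12a1 and Col11a1, where 3.24% of all genes were called.

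**Figure D3:**
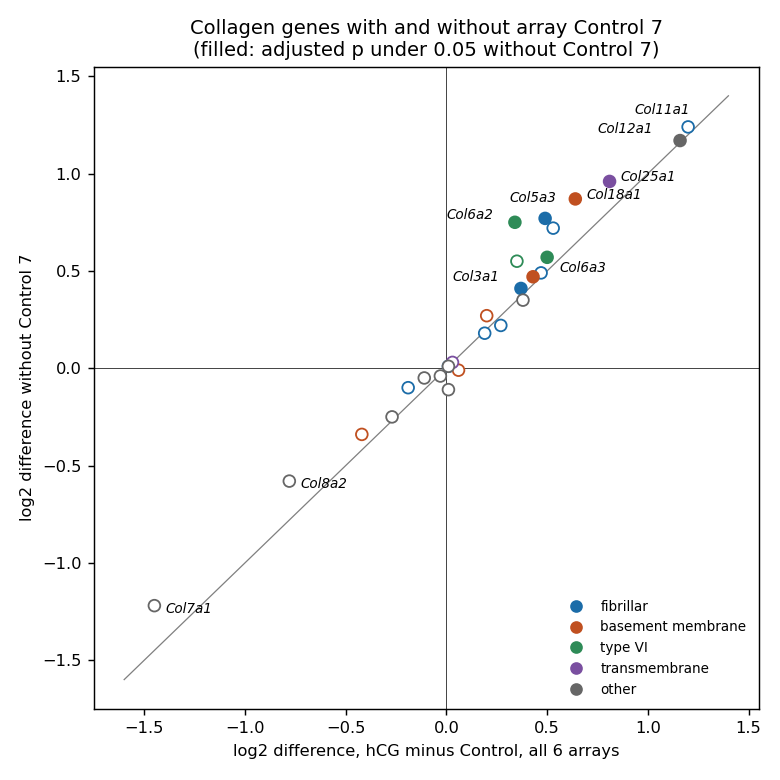
Log2 difference, hCG minus Control, of the 28 tested collagen genes with all 6 arrays (horizontal) and without Control 7 (vertical); the diagonal marks equal values and filled points the 8 genes with an adjusted p under 0.05 without that array. Col6a2 moves from 0.34 to 0.75 and Col5a3 from 0.49 to 0.77, while Col12a1 stays near 1.16.

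Markers of cell types were read on the same arrays. Over all genes 1.01% were called higher and 0.815% lower, and counts of 1 in these lists are too small to set against those shares. Of 12 endothelial markers with both group means above the filter level, 5 rose and 0 fell by limma. A further called marker, Sox17, passed the filter through its hCG values alone (Control mean 2.23, hCG mean 4.38). The mean level of all 15 endothelial markers on the array, counted from the Control mean, read -0.33, -0.14 and 0.47 in Control and 1.16, 1.13 and 1.05 in hCG spheres. Emcn, an endothelial surface glycoprotein, was at 4.60, 4.91 and 5.71 in Control and 6.88, 7.11 and 6.90 in hCG spheres, so Control 7 was the highest Control array there too. Vwf, a defining endothelial gene, was below the filter in both groups. Basement membrane collagens are made by endothelial cells as well as by epithelial cells and fibroblasts, and the part of endothelial cells in the collagen values was not tested. In these bulk samples, a change in the number of cells of a type and a change in RNA per cell cannot be told apart.

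Of 13 tested fibroblast markers other than collagens, 1 rose (Lum) and 1 fell (Dpt), both genes of proteins that bind fibrillar collagen, and the median was 0.25. Their mean level was -0.21, 0.04 and 0.17 in Control and 0.36, 0.12 and 0.37 in hCG spheres, so that hCG 6 lay below Control 7. Of the 13 markers 9 lay above 0, where 55.8% of all genes did. The hCG values lay wholly above Control in 5 and wholly below in 1, where 19.3% and 12.3% of all genes did so. Dcn, a proteoglycan of collagen fibrils made by fibroblasts, had a difference of -0.06 (limma adjusted p = 0.731), and Mfap5 one of 1.88 (limma adjusted p = 0.138). Of 3 pericyte markers with both group means above the filter level 0 were called, with mean levels from -0.32 to 0.54 in Control and from 0.24 to 0.54 in hCG spheres. Rgs5, a pericyte marker that passed the filter through its hCG values alone, had a Control mean of 2.47 and an hCG mean of 3.13 (limma adjusted p = 0.0439). Over all 8 pericyte markers on the array the levels ran from -0.06 to 0.10 and from 0.25 to 0.47. The 9 basal markers had 0 calls, at levels from -0.64 to 0.51 and from 0.53 to 0.75. The 11 luminal markers had 1 lower call (Cd24), at levels from -0.77 to 0.59 and from -0.64 to -0.35. Keratins of both epithelial layers passed the filter, and so did 13 of 15 fibroblast markers. Of 9 macrophage markers 3 passed, with 0 called. The part of these cell types in the collagen values was not tested.

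**Figure D4:**
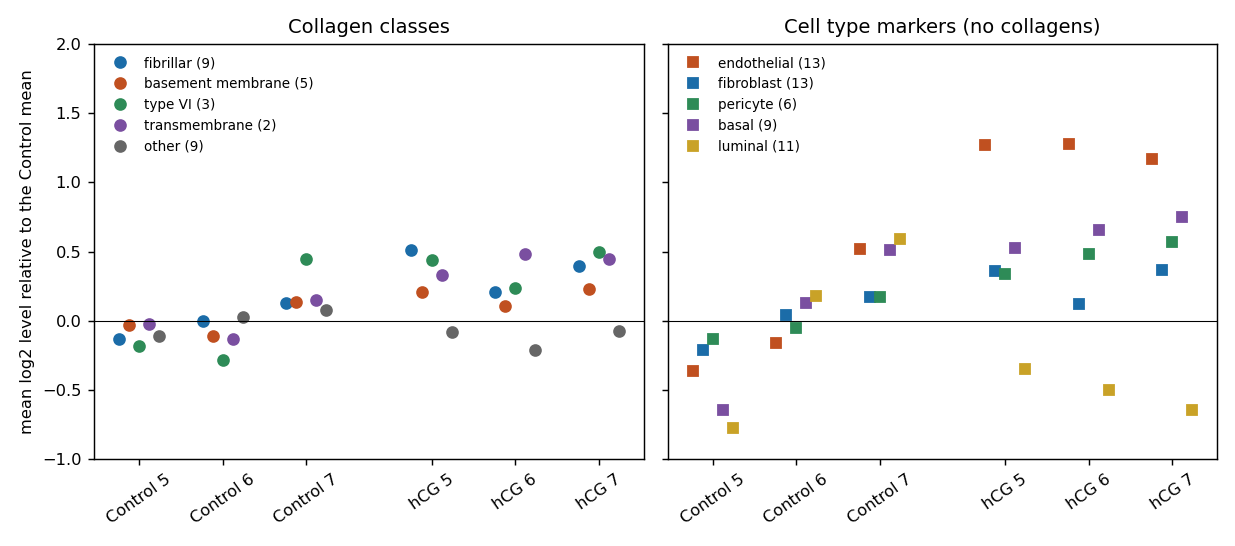
Mean log2 level of tested genes on each array, relative to the mean of the Control arrays. Collagen classes are on the left. Endothelial, fibroblast, pericyte, basal and luminal marker lists without collagens are on the right, and macrophage markers are not drawn. Numbers of genes are in the legends and points are set side by side for legibility. Fibrillar collagens lie between -0.13 and 0.13 in Control and between 0.21 and 0.51 in hCG spheres. The 13 endothelial markers drawn lie between 1.17 and 1.28 in hCG spheres. They include Sox17, which passed the filter through its hCG values alone. The 12 with both group means above the filter level lie between 1.09 and 1.23. The pericyte markers drawn include Rgs5 and Abcc9, which also passed through their hCG values alone.

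Transcripts of Bacillus subtilis, which serve as spikes added to the RNA before labelling, read 5.72 ± 0.13 (SD, n = 3) in Control and 4.61 ± 0.36 in hCG spheres over 12 probe sets, with hCG 6 (5.02) nearest to the Control arrays. Array medians lay between 3.44 and 3.48. The part of the lower spike level in the collagen values was not tested.

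Genes of collagen processing, cross-linking and binding were read on the same arrays. Of 46 listed processing and receptor genes, 33 were on the array and 30 were tested. By limma 0 passed, with 8 at an unadjusted p under 0.05, where 1.82% and 24.1% of all genes did so. Their median difference was 0.13.

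Loxl2, a lysyl oxidase that cross-links collagen chains, had the smallest p of the 30 tested genes of the list. It measured 7.29, 7.63 and 7.51 in Control and 8.39, 7.83 and 8.07 in hCG spheres, a difference of 0.62 (SE 0.16, limma adjusted p = 0.0920) without overlap. Loxl1, of the same family, differed by 0.41 (adjusted p = 0.160), without overlap, and Lox itself by 0.02 (adjusted p = 0.931). Pcolce, which speeds the trimming of procollagen ends, differed by 0.43 (adjusted p = 0.162). Without Control 7 it differed by 0.60 (limma adjusted p = 0.0377), where 5.6% of all genes were called.

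Of the enzymes and factors inside the cell, P4ha2, a prolyl hydroxylase subunit that stabilises the collagen helix, differed by 0.25 (adjusted p = 0.139), but by -0.02 when its probe sets were averaged. Creb3l1, a transcription factor of collagen-secreting cells, differed by 0.46 (adjusted p = 0.149). Serpinh1, the chaperone of procollagen, differed by 0.23 (adjusted p = 0.207).

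The discoidin receptors, kinases that bind collagen at the cell surface, were lower on average. Ddr2 measured 8.89, 8.88 and 8.59 in Control and 8.44, 8.49 and 8.37 in hCG spheres, a difference of -0.35 (SE 0.11, limma adjusted p = 0.116). Ddr1 differed by -0.37 (SE 0.12, adjusted p = 0.133). In both the hCG values lay below all Control values. Ddr2 passed limma without Control 7 (-0.45, adjusted p = 0.0377) and with no other array left out (adjusted p from 0.156 to 0.358). Without Control 7, 2 of the 30 tested genes of the list passed, where 5.6% of all genes did. The collagen-binding integrin gene Itga1 differed by 0.57 (SE 0.21, adjusted p = 0.161) and its partner Itgb1 by 0.09 (adjusted p = 0.540).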

How the data were processed

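RNA from mammospheres was amplified in 2 cycles and labelled with biotin, per the labels' protocols. Analysis began from the authors' deposited log2 expression table, with 31099 probe sets and 6 arrays; log base and normalization are not stated, and were read from the values (0.74 to 13.1, with like distributions on all arrays). The submitters' processing notes list the tools limma, MAS5 and RMA without their roles. Such normalization hides a change shared by most genes.

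The 57 control probe sets and the dimmest 40% of the others (mean below 2.67) were left out, which left 18625. Groups were compared in R 4.3.3 with limma 3.58.1 (lmFit, eBayes; two-sided, no block), and Benjamini-Hochberg adjustment ran over 10424 genes, each by its brightest probe set. Of the probe sets, 20826 named 1 gene, 436 several and 9780 none; symbols of 20758 were updated through Entrez numbers with the RefSeq table of GRCr8, and 68 were kept. The number of arrays (4 residual degrees of freedom) limits the precision. Glands came from 3 animals per group, per the labels' design text, but whether every array came from its own animal is not said, so the p-values describe the spread among these samples only, which may be technical.

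The members and lists were chosen with earlier results of these data known. Array values are given for called genes, for the 3 tested genes of smallest p in each class and for genes whose probe sets differ in sign. From the processing list, the 6 tested genes of smallest p are named. Others (such as Col1a1, Col1a2, Col14a1, Pcolce, Lox, Itga1 and Colgalt2) were chosen after their values were seen. Basement membrane genes are those of types IV, XV and XVIII. Partner chains were compared by exact permutation. Alternatives were other filters, normalizations, array weights, a variance trend, averaged probe sets, adjustment over probe sets, a looser threshold, the array number as a block and each array left out. A planned pseudocount was not needed for log2 values. Marker levels over all markers on the array, and over those with both group means above the filter level, were added after seeing the data.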

Additional observations from a re-analysis of the deposited data

How the results depend on the processing

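The 2 calls among collagen genes stayed 2 with no filter, a 60% filter, median centring, quantile normalization, cyclic loess and adjustment over probe sets, and were 3 with averaged probe sets. They were 14 with array weights (25.5% of all genes called), 5 with a variance trend and robust fit (2.91%) and 6 at adjusted p under 0.10. With 1 array left out in turn the count ran from 0 to 8. The processing and receptor genes, at 0 calls, had 11 with array weights and 1 (Loxl2) at adjusted p under 0.10, and from 0 to 2 with 1 array left out. The labels do not say whether the array numbers pair the groups. Deviations of same-numbered arrays correlated at -0.09, 0.13 and 0.00, and those of differently numbered arrays from -0.19 to 0.18. With 3 arrays per group these values cannot exclude a pairing. With the number as a block limma called 118 genes (190 without) and 2 collagen genes, Col12a1 (adjusted p = 0.0450) and Col7a1 (-1.45, adjusted p = 0.0450), while Col25a1 was at 0.0592.

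The median of basement membrane genes was 0.06 with no filter and 0.31 with a 60% filter, that of transmembrane genes 0.20 with no filter, and that of all measured collagen genes 0.36 with a 60% filter, since these change which genes are counted. With array weights the type VI median was 0.62. With 1 array left out, medians ran from 0.29 to 0.41 (fibrillar), 0.17 to 0.27 (basement membrane), 0.25 to 0.57 (type VI), 0.36 to 0.50 (transmembrane), -0.11 to -0.02 (other) and 0.03 to 0.12 (all measured). Signs turned in genes that were not called: Col1a2 to -0.07 with quantile normalization and -0.05 with cyclic loess, Col9a2 to -0.14 and Col16a1 to 0.00 with array weights, and P4ha2 to -0.02 with averaged probe sets. With 1 array left out Col4a5 ran from -0.01 to 0.18, Col1a2 from -0.02 to 0.05, Col8a1 from -0.14 to 0.90, Col16a1 from -0.06 to 0.01, Col22a1 from -0.01 to 0.04, Col9a2 from -0.11 to 0.13 and Col17a1 from -0.07 to 0.14. The cause of these changes was not tested.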
